A study of Saccharomyces cerevisiae with 4 samples.

Results

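In strains of the budding yeast Saccharomyces cerevisiae that expressed 1 member of the cytosolic Hsp70-Ssa family, 36 genes stood above 2 times their Ssa1 level in both the Ssa3 and the Ssa4 strain, but not in the Ssa2 strain. They were taken from the 5771 features with a value on all 4 arrays, of 5794 in the file, by 3 ratios of the deposited linear intensities: Ssa3/Ssa1 above 2, Ssa4/Ssa1 above 2 and Ssa2/Ssa1 at most 2. The Yap1-linked genes OYE3, TRX2, GPX2, GRX1 and HSP31 were to be left out, and 0 of them met these limits. The ratios to Ssa1 chose the genes, so they are given as a description. All 4 strains were G402 cells with chromosomal deletions of SSA1, SSA2, SSA3 and SSA4. Each carried Ssa1, Ssa2, Ssa3 or Ssa4 on a plasmid marked with LEU2, expressed from the constitutive SSA2 promoter, and was free of the prion [PSI+]. The deposited description gives 8 extractions of 5 ml cultures per strain, whereas the methods of the study name 3 replicates from 2 experiments. RNA of each strain was pooled before labelling and hybridized to 1 array. There are therefore no replicates, no standard deviations and no tests, and every ratio compares 2 pools of RNA.

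Hsp70 proteins bind exposed hydrophobic stretches of unfolded proteins and release them in cycles driven by ATP. In wild-type yeast Ssa1 and Ssa2 are made constitutively, whereas Ssa3 and Ssa4 are made mainly under stress. Yeast cells meet oxidants largely through the transcription factor Yap1, which turns on genes of the glutathione and thioredoxin systems. Heat, osmotic stress and the loss of glucose act on a wider set of genes through the factors Msn2 and Msn4. Genes known from both kinds of response are among the 36, beside genes of mitochondrial translation and of RNA polymerase III. Amino acid and pyrimidine synthesis are each represented by 1 gene, LEU2, which is also the plasmid marker, and URA10.

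The array medians lay between 200.4 and 201.5. A value is the Cy5 brightness of a spot after background subtraction and scaling to the array median. It compares 1 gene between arrays and does not order different genes. Where 4 values of a gene follow each other, they stand in the order of the strain numbers, from Ssa1 to Ssa4. Of all features with 4 values, 1.35% were above 2 times Ssa1 with Ssa2, 2.24% with Ssa3 and 5.13% with Ssa4, and the 36 genes are 0.624%. SSA2 checks the label of 1 array, with an intensity of 2505 on the Ssa2 array and at most 9.01 on the others. All 3 ratios of a gene use the same Ssa1 value, so an error in that value moves them together. The study also measured a selection of genes by RT-qPCR and reports that it correlated well with its arrays. The genes chosen here were not in that selection. Of features high over Ssa1 in the other strains, ATG8, HSP31, HXT1, MRPL6 and MSS116 had lower ratios by RT-qPCR than on the arrays. YNR014W was also lower by RT-qPCR, but nearer to its array ratios, whereas OYE3 was higher. The feature named VMA13 had deposited ratios of 5.93, 8.02 and 5.94 with Ssa2, Ssa3 and Ssa4. For that gene the study's comparison gives no 2-fold change by either method. The part of the Ssa1 array value in these differences was not tested.

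On the Ssa1 array the 36 genes ranged from 2.60 for YFL051C to 8503 for HSP30, with a median of 285 against 203 for all features. Their median was 472 with Ssa2, 674 with Ssa3 and 1291 with Ssa4, where that of all features was between 201 and 202. The 36 genes were thus spread over the range of the arrays, and 27 of them had at least 100 on all 4 arrays. The other 9 were below 100 on the Ssa1 array. The lower of the Ssa3 and Ssa4 values lay above the higher of the Ssa1 and Ssa2 values in all 36, beside 23.3% of all features, which the choice of the genes fixes and from which nothing is read. In 29 of the 36 genes each strain number had a higher intensity than the one before, an order found for 9.22% of all features and partly fixed by the choice of the genes.

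**Figure D1:**
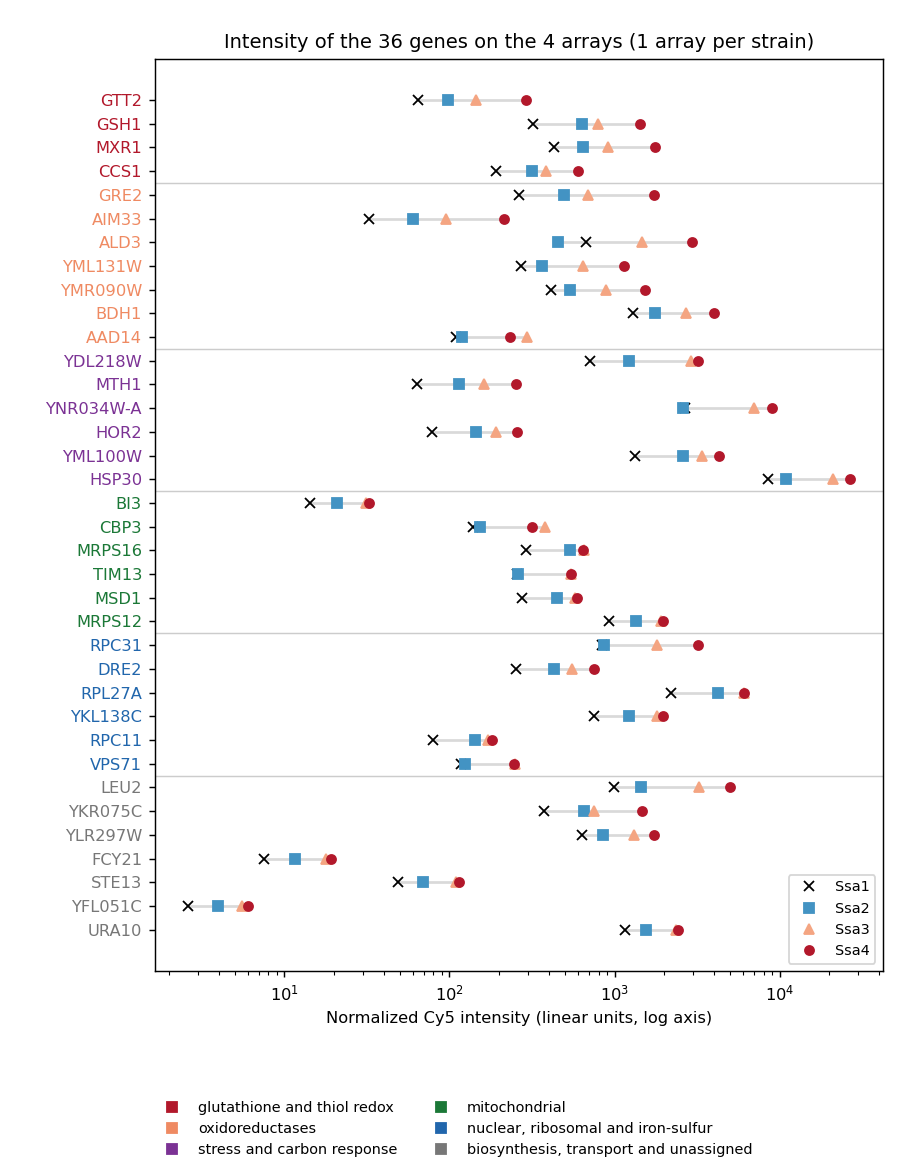
Normalized Cy5 intensity (log axis) of each of the 36 genes in the 4 strains, 1 point per array, with gene names coloured by role. The Ssa2 value lies between Ssa1 and Ssa3 for most genes and falls below Ssa1 only for ALD3 and YNR034W-A.

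The ratio Ssa3/Ssa1 was 2.01 to 4.14 with a median of 2.24, and Ssa4/Ssa1 was 2.07 to 6.53 with a median of 3.10. The ratio Ssa2/Ssa1 was 0.675 to 1.97 with a median of 1.50. Ssa2 was above Ssa1 for 34 of the 36 genes, beside 47.3% of all features, and above 1.5 times Ssa1 for 18, beside 5.23%. The genes were chosen for high ratios over the same single Ssa1 value, which favours low Ssa1 readings and with them a higher Ssa2/Ssa1, and the size of that part was not tested. On the log2 scale the Ssa2 strain reached a median of 50.3% of the difference seen between Ssa3 and Ssa1, with more than 50% in 19 genes.

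**Figure D2:**
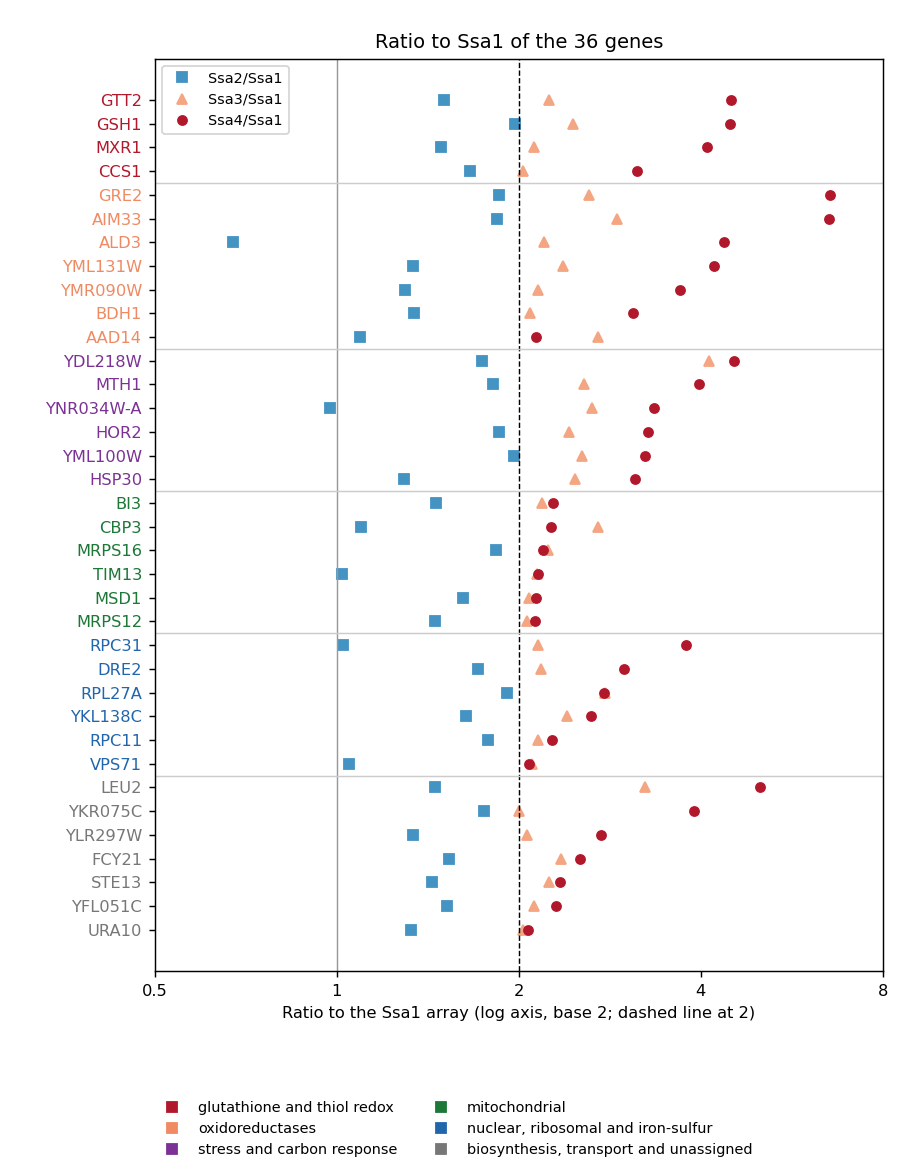
Ratio of the Ssa2, Ssa3 and Ssa4 intensities to the Ssa1 intensity (log axis) for the 36 genes, 1 array per strain, with the limit of 2 as a dashed line. Ssa4 lies well to the right of Ssa3 for the redox genes and oxidoreductases other than AAD14, and close to Ssa3 for the mitochondrial genes.

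In total 74 features, or 1.28%, were above 2 in both the Ssa3 and the Ssa4 strain, and 38 of them were above 2 in the Ssa2 strain as well. Among the 74, 2 had a Ssa2/Ssa1 up to 1 and 5 a value over 1 and up to 1.25. A further 11 lay up to 1.5, 8 up to 1.75, 10 up to 2, 7 up to 2.25 and 4 up to 2.5. No gap was seen at the limit of 2. Just below it lay GSH1 at 1.97, YML100W at 1.97 and RPL27A at 1.92, and just above it AAD4, a putative aryl-alcohol dehydrogenase, at 2.02, the cytochrome c heme lyase gene CYC3 at 2.06 and the methionine permease gene MUP3 at 2.07. The 36 genes are therefore the lower part of a continuous range of Ssa2 values.

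**Figure D3:**
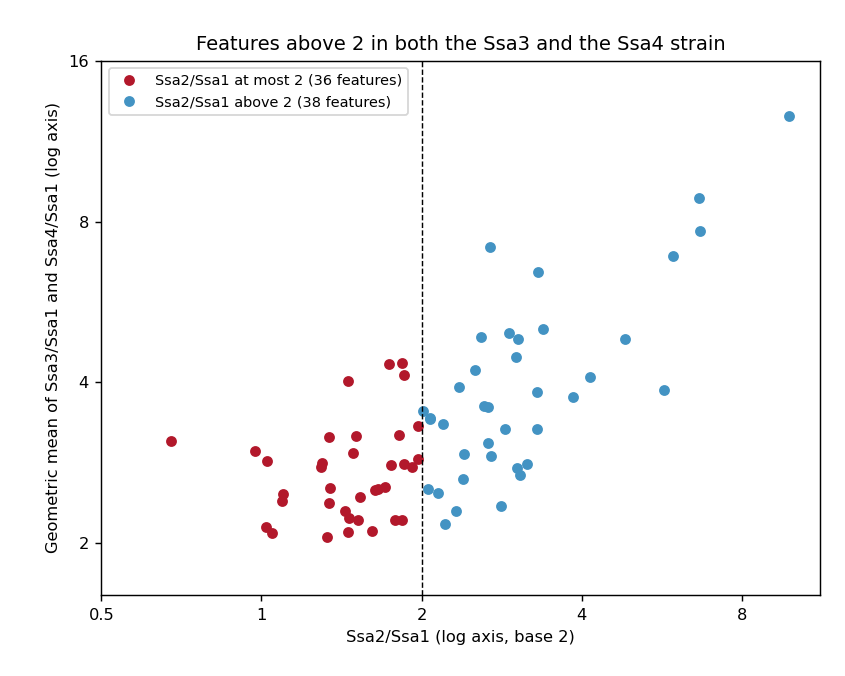
The 74 features above 2 in both the Ssa3 and the Ssa4 strain, by Ssa2/Ssa1 and by the geometric mean of Ssa3/Ssa1 and Ssa4/Ssa1 (both log axes). The 36 genes left of the dashed line at 2 and the 38 features right of it form 1 cloud without a gap.

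At the limit on Ssa3, YKR075C at 2.01, URA10 at 2.03 and CCS1 at 2.03 lay inside. Outside lay YIL046W at 1.999, SMK1, a kinase of spore wall formation, at 1.999 and PET117, a factor for cytochrome oxidase assembly, at 1.99. With the other limits met, 47 features had a Ssa3/Ssa1 over 1.75 and up to 2, against 20 over 2 and up to 2.25. At the limit on Ssa4, URA10 at 2.07, VPS71 at 2.08 and MRPS12 at 2.13 lay inside. SSE1, an Hsp110 that exchanges the nucleotide of Hsp70, lay outside at 1.98, with intensities of 1514, 1730, 3204 and 3002. YIL169C at 1.98 and the sulfonate dioxygenase gene JLP1 at 1.95 also lay outside.

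Set against Ssa2 in place of Ssa1, the differences were smaller. The limits on the 3 ratios to Ssa1 place Ssa3 and Ssa4 above Ssa2 in every one of the 36 genes and favour higher ratios, so the counts over Ssa2 are a description beside which the shares of all features are given and from which nothing is read. The ratio Ssa3/Ssa2 was 1.14 to 3.26 with a median of 1.51, where the median of all features was 1.06 and their middle 50% lay between 0.859 and 1.30. The ratio Ssa4/Ssa2 was 1.19 to 6.48 with a median of 2.05, against a median of 1.03 and a middle range of 0.821 to 1.27. Ssa3/Ssa2 was above 1 for all 36 genes, beside 57.7% of all features, above 1.5 for 18, beside 13.8%, above 2 for 9, beside 3.74%, and above 3 for ALD3, beside 0.606%. Ssa4/Ssa2 was above 1 for all 36, beside 54.4%, above 1.5 for 31, beside 11.5%, above 2 for 19, beside 3.17%, and above 3 for 7, beside 0.71%. These 7 were GRE2, AIM33, ALD3, YML131W, LEU2, RPC31 and YNR034W-A. Both were above 2 for 7 genes, ALD3, CBP3, LEU2, RPC31, TIM13, YDL218W and YNR034W-A, beside 0.884% of all features, and above 1.5 for 18, beside 4.14%. These 7 are thus the genes in which, as deposited, Ssa2 lay below Ssa3 and Ssa4 by the same 2-fold limit that chose the 36. After the subtraction of neighbouring features described below, ALD3, RPC31, YDL218W and YNR034W-A still met the 3 limits over Ssa1. TIM13 and CBP3 did not, with ratios to Ssa1 of 1.38, 1.68 and 1.64, and of 1.09, 2.61 and 1.95. LEU2, the plasmid marker, has no place on that grid.

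Among the 4 genes of glutathione and thiol redox, GSH1 encodes gamma-glutamylcysteine synthetase, the enzyme that starts glutathione synthesis. Its intensity was 321, 632, 791 and 1434. The largest of these steps were those from Ssa1 to Ssa2 and from Ssa3 to Ssa4. GTT2, a glutathione S-transferase, had 64.7, 97.5, 145 and 290. MXR1 encodes the methionine-S-sulfoxide reductase, which repairs oxidized methionine, and had 431, 640, 915 and 1768 in the same order. CCS1, the copper chaperone of the superoxide dismutase Sod1, had 190, 316, 387 and 598. In all 4 genes Ssa4 was well above Ssa3, by 1.55-fold for CCS1, 1.81-fold for GSH1, 1.93-fold for MXR1 and 2.00-fold for GTT2. Ssa3 itself was only 1.23-fold above Ssa2 for CCS1, 1.25-fold for GSH1, 1.43-fold for MXR1 and 1.49-fold for GTT2.

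Most of the 7 genes grouped as oxidoreductases encode enzymes that act on aldehydes, ketones and alcohols, or proteins similar to such enzymes. AIM33 and YMR090W were placed with them by other similarities. GRE2, an NADPH-dependent methylglyoxal reductase, had the highest ratio of Ssa4 to Ssa1 of the 36 genes at 6.53, with 265, 492, 695 and 1734. AIM33, similar to human cytochrome b5 reductase, followed at 6.51, from lower intensities of 32.8, 60.3, 95.3 and 213. For both genes the last step, from Ssa3 to Ssa4, was the largest, at 2.50-fold for GRE2 and 2.24-fold for AIM33. ALD3, a cytoplasmic aldehyde dehydrogenase that is repressed by glucose, had 671, 453, 1476 and 2932. It was the gene with the lowest Ssa2 value relative to Ssa1, at 0.675, and with the highest Ssa3/Ssa2 and Ssa4/Ssa2, at 3.26 and 6.48.

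YML131W, similar to medium-chain dehydrogenases, had 272, 365, 645 and 1148. YMR090W, of unknown function and similar to sugar nucleotide dehydratases, had 413, 537, 889 and 1530. In BDH1, the butanediol dehydrogenase that interconverts acetoin and 2,3-butanediol, the values were 1300, 1747, 2714 and 4017. These 3 genes shared a small difference between Ssa1 and Ssa2, of 1.30-fold to 1.34-fold, and larger steps to Ssa3 and to Ssa4. AAD14, a putative aryl-alcohol dehydrogenase, went another way, with 109, 119, 294 and 233. It was the gene with the lowest Ssa4/Ssa3 of the 36, at 0.790.

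Of the 6 genes of the stress and carbon response, YDL218W, a gene of unknown function that is known to be induced by starvation, had the highest Ssa3/Ssa1 of the 36 at 4.14. Its intensity was 705, 1226, 2917 and 3204. HSP30, a stress protein of the plasma membrane that restrains the proton pump Pma1, was the brightest of the 36, with 8503, 10990, 21057 and 26526. YNR034W-A, named EGO4 in the current annotation and known to depend on Msn2 and Msn4, had 2661, 2593, 7033 and 8926. Its Ssa1 and Ssa2 values differed by a ratio of 0.974, whereas Ssa3 was 2.71-fold above Ssa2. In these genes Ssa3 and Ssa4 lay near each other, with Ssa4/Ssa3 at 1.10 for YDL218W, 1.26 for HSP30 and 1.27 for YNR034W-A.

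HOR2, also called GPP2, is a glycerol-3-phosphatase that makes the osmolyte glycerol. Its intensity was 78.3, 145, 190 and 256. MTH1, a repressor of the glucose-sensing pathway that acts with Rgt1 on hexose transporter genes, had 63.4, 115, 163 and 252. YML100W had 1329, 2614, 3382 and 4304. The current annotation names this locus TSL1, a subunit of the trehalose synthase, whereas the study's gene list describes it in the words of a small open reading frame found by gene trapping, so which of them the spot reads is not known here. In all 3 genes Ssa2 was close to its limit, with Ssa2/Ssa1 between 1.81 and 1.97.

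As deposited, Ssa3 and Ssa4 were close in intensity in the 6 mitochondrial genes, unlike in the 4 redox genes. TIM13, a small chaperone of the intermembrane space that guides hydrophobic proteins to the inner membrane, had 255, 261, 546 and 548. As deposited, its 4 values fell into a low and a high pair. CBP3, needed for the synthesis of cytochrome b and the assembly of the bc1 complex, showed the same 2 levels, with 139, 153, 378 and 314. MRPS12 and MRPS16, proteins of the small mitochondrial ribosomal subunit, had 924, 1343, 1910 and 1966, and 293, 538, 654 and 641. MSD1, the mitochondrial aspartyl-tRNA synthetase, had 276, 446, 574 and 589. In the last 3 genes Ssa2 lay closer to Ssa3 than to Ssa1, on the log2 scale at 51.5% of the way for MRPS12, 65.6% for MSD1 and 75.6% for MRPS16. BI3, the maturase for an intron of the mitochondrial COB gene and the only one of the 36 that lies in the mitochondrial genome, was dim, with 14.3, 20.9, 31.3 and 32.6. Over the 6 genes Ssa4/Ssa3 was 0.833 to 1.04.

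A group of 6 genes belongs to transcription, chromatin, ribosomes and iron-sulfur assembly. RPC31 and RPC11 are subunits of RNA polymerase III, which makes tRNA and 5S rRNA. RPC31 had 844, 864, 1817 and 3197, so that Ssa1 and Ssa2 were close and Ssa4 was 1.76-fold above Ssa3. RPC11, by contrast, had 79.9, 142, 172 and 182, with most of the difference between Ssa1 and Ssa2. VPS71, a subunit of the SWR1 complex that places the histone variant H2A.Z, had 118, 123, 249 and 245, again a low and a high pair. DRE2, a factor of cytosolic iron-sulfur assembly, had a higher value with each strain number, at 253, 432, 550 and 756.

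RPL27A, a protein of the large cytosolic ribosomal subunit, had 2203, 4218, 6120 and 6094. Its near-identical paralogue RPL27B could share the signal, and the oligonucleotide is not given in the sources used here. The feature of RPL27B had ratios to Ssa1 of 3.01, 3.05 and 6.53 with Ssa2, Ssa3 and Ssa4, against 1.92, 2.78 and 2.77 for RPL27A. It was thus above 2 in the Ssa2 strain as well. The feature listed as YKL138C had 748, 1224, 1800 and 1968. The study's list calls it HSK3, a subunit of the DASH complex that links kinetochores to microtubules, but the current annotation gives that name to YKL138C-A and calls YKL138C MRPL31, a mitochondrial ribosomal protein. The feature is therefore named here by its locus. It is not counted among the 6 genes grouped as mitochondrial, and its Ssa4/Ssa3 was 1.09.

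The other 7 genes serve biosynthesis, transport or roles that are not known. LEU2, beta-isopropylmalate dehydrogenase of leucine synthesis, had 999, 1451, 3229 and 5006. LEU2 is also the selectable marker of the plasmids that carry the SSA genes in all 4 strains, and chromosomal leu2 is mutant in G402, so its value includes the plasmid copy. Its Ssa3/Ssa1 of 3.23 and Ssa4/Ssa1 of 5.01 were exceeded among the 36 only by YDL218W for Ssa3 and by GRE2 and AIM33 for Ssa4. URA10, the minor orotate phosphoribosyltransferase of pyrimidine synthesis, had 1165, 1548, 2367 and 2412. STE13, a Golgi peptidase that matures alpha factor, had 48.5, 69.5, 109 and 114.

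YLR297W and YKR075C are of unknown function. The study's list describes YKR075C in the words of an overlapping open reading frame, so which of them the spot reads is not known here. YLR297W had 634, 849, 1308 and 1735. YKR075C had 374, 656, 750 and 1459, with Ssa3 only 1.14-fold above Ssa2, the smallest such difference among the 36, and Ssa4 1.94-fold above Ssa3. FCY21, a putative purine-cytosine permease, had 7.57, 11.6, 17.8 and 19.1, and YFL051C, of unknown function, had 2.60, 3.96, 5.52 and 5.99. These 2 genes and BI3 were the dimmest of the 36 on all 4 arrays.

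The ratio of Ssa4 to Ssa3 was not itself used to choose the genes, although both of its terms were. Ssa4/Ssa3 was 0.790 to 2.50 with a median of 1.27, where the middle 50% of all features lay between 0.750 and 1.26. It was above 1 for 31 of the 36 genes, beside 48.7% of all features, above 1.5 for 13, beside 12.1%, and above 2 for GRE2 and AIM33, beside 2.74%, and above 3 for 0, beside 0.451%. Ssa4 was also above Ssa3 in most of the 38 features above 2 in all 3 strains, so this trait is not particular to the 36 genes. Of the 11 redox genes and oxidoreductases, with AIM33 and YMR090W counted among them, 9 were above 1.5 and the median was 1.81. YMR090W, of unknown function, is also counted in the list of general stress genes below. Of the other 25 genes, MTH1, RPC31, LEU2 and YKR075C were above 1.5 and the median was 1.09. After subtraction of the neighbouring features on the array, 10 of 11 and 7 of 24 were above 1.5. The roles were assigned with the values known, so this division is a description of these arrays.

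**Figure D4:**
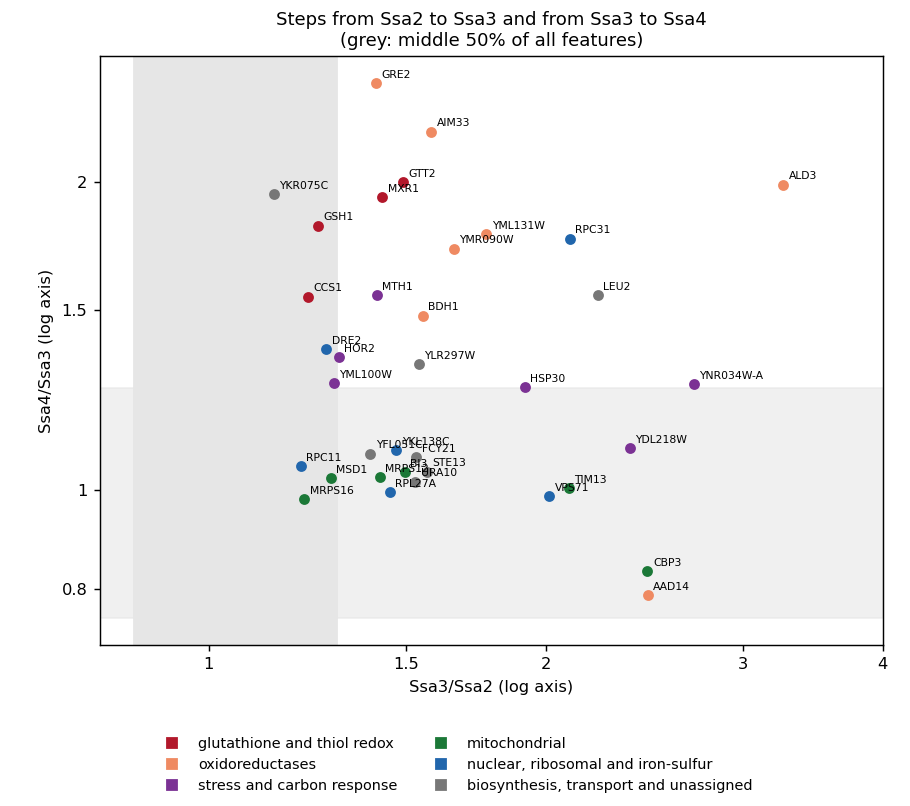
Ssa3/Ssa2 against Ssa4/Ssa3 (log axes) for the 36 genes, coloured by role, with grey bands for the middle 50% of all features. Redox genes and oxidoreductases sit high, with Ssa4/Ssa3 above 1.4 except AAD14 at 0.790, while the 6 genes grouped as mitochondrial lie between 0.833 and 1.04.

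The pathways to which the genes belong could be followed only through features that carry a name. Names came from the study's own list of changed genes, which covers 946 features, or 16.3%, so a count over a pathway is a count of listed genes and no share of the pathway. A gene is listed because it passed a limit in at least 1 strain, and most passed with Ssa4. Of the 946 named features 76, or 8.03%, were above 2 with Ssa2, 126, or 13.3%, with Ssa3 and 292, or 30.9%, with Ssa4. Of 21 genes of glutathione and thiol redox, 11 carry a name, and of these 11 were above 2 times Ssa1 with Ssa4, 4 with Ssa3 and 0 with Ssa2. The 7 that are not among the 36 were above 2 only with Ssa4, so that their count there is fixed by the listing, and they had a Ssa3/Ssa1 from 1.40 for the glutathione reductase gene GLR1 to 1.89 for ZWF1, which encodes the glucose-6-phosphate dehydrogenase. AHP1, an abundant thioredoxin peroxidase, had 14763, 19143, 27748 and 46685, and its Ssa3/Ssa1 of 1.88 kept it outside. Of 28 genes of the small mitochondrial ribosomal subunit, 11 carry a name, of which 8 were above 2 with Ssa4, 4 with Ssa3 and 0 with Ssa2, and RSM23 was below 0.5 with Ssa4, at 0.413. MRPS5, MRPS17, MRP2, MRP10, MRP17 and RSM27 were above 2 only with Ssa4, again a count that the listing fixes. The list of stress-induced oxidoreductases has 20 genes, of which 12 carry a name and 5 are among the 36. In it 8 were above 2 with Ssa4, 7 with Ssa3 and 1 with Ssa2, counts that the choice of the genes and the listing partly fix. AAD3 and ALD2 were below 0.5 with Ssa4, at 0.394 and 0.437, and AAD10 with Ssa2, at 0.471.

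Of 25 general stress and carbon reserve genes, 9 carry a name. Of these, 8 were above 2 with Ssa4, 5 with Ssa3 and 0 with Ssa2. The 5 above 2 with Ssa3 were HSP30, HOR2, YMR090W, YNR034W-A and YDL218W, all among the chosen genes, so the choice fixes their counts. DDR48, TPS1 and HXK1 were above 2 only with Ssa4, a count that the listing fixes. GPH1, the glycogen phosphorylase, was below 0.5 with Ssa2, at 0.432. HXK1, a hexokinase, had a Ssa3/Ssa1 of 1.84 and TPS1, the trehalose-6-phosphate synthase, 1.78, both short of the limit. In cytochrome b synthesis CBP6, the partner of CBP3, had a Ssa3/Ssa1 of 1.94 and a Ssa4/Ssa1 of 2.14. In the same list CBP1, which stabilizes the COB transcript, and MRS1, which splices it, were above 2 in all 3 strains. Their ratios with Ssa2, Ssa3 and Ssa4 were 3.30, 3.94 and 2.71 for CBP1 and 3.85, 4.40 and 3.22 for MRS1. Of RNA polymerase III, RET1 carries a name beside RPC31 and RPC11, and its Ssa3/Ssa1 was 0.482, in the other direction. For leucine and branched-chain amino acids 6 genes carry a name. LEU2 was the only one of them above 2 in any strain, and LEU9, BAT2 and ILV3 were below 0.5 in the Ssa4 strain, at 0.390, 0.318 and 0.460. Similarly STD1, the paralogue of MTH1, was above 2 in the Ssa4 strain at 3.39 and not in the Ssa3 strain, at 1.74.

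Signal on an array can vary with position, and the feature names imply a grid of 32 blocks on which 35 of the 36 genes have neighbouring features. That grid is not stated in the sources used here, and the neighbour positions were picked from these data. The median log2 ratio of up to 6 neighbours was taken for each gene. Over the 35 genes its median was -0.02 in Ssa2, 0.12 in Ssa3 and 0.04 in Ssa4. It was above 0.3 for 2 genes in Ssa2, 5 in Ssa3 and 7 in Ssa4, beside 4.02%, 12.4% and 15.7% of all features on the grid. When it was subtracted, 17 of the 35 genes still met the limits. These were 2 of the 4 redox genes, 5 of the 7 oxidoreductases, 5 of the 6 stress and carbon genes, 3 of the 6 nuclear, ribosomal and iron-sulfur genes, 2 of the other genes and 0 of the 6 mitochondrial genes. Among the mitochondrial genes Ssa3/Ssa1 became 1.68 for TIM13, 1.78 for BI3, 1.80 for MRPS12 and 1.97 for MRPS16. Ssa4/Ssa1 became 1.64 for TIM13, 1.84 for MRPS16 and 1.95 for CBP3, and Ssa2/Ssa1 became 2.02 for MSD1. The last of these passed the limit on Ssa2 while its other ratios stayed above 2. Ssa3/Ssa1 and Ssa4/Ssa1 moved apart in BI3, to 1.78 and 3.17, and in MRPS12, to 1.80 and 2.67. CBP3 went to 2.61 and 1.95, whereas in TIM13, MRPS16 and MSD1 both ratios stayed nearer each other. The Ssa2/Ssa1 of TIM13 became 1.38, so its low and high pair drew together. For YFL051C the Ssa3/Ssa1 went from 2.12 to 0.901, below 1, next to neighbours at 0.83 in Ssa2 and 1.24 in Ssa3 on the log2 scale. The part of position on the array in these ratios was not tested.

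**Figure D5:**
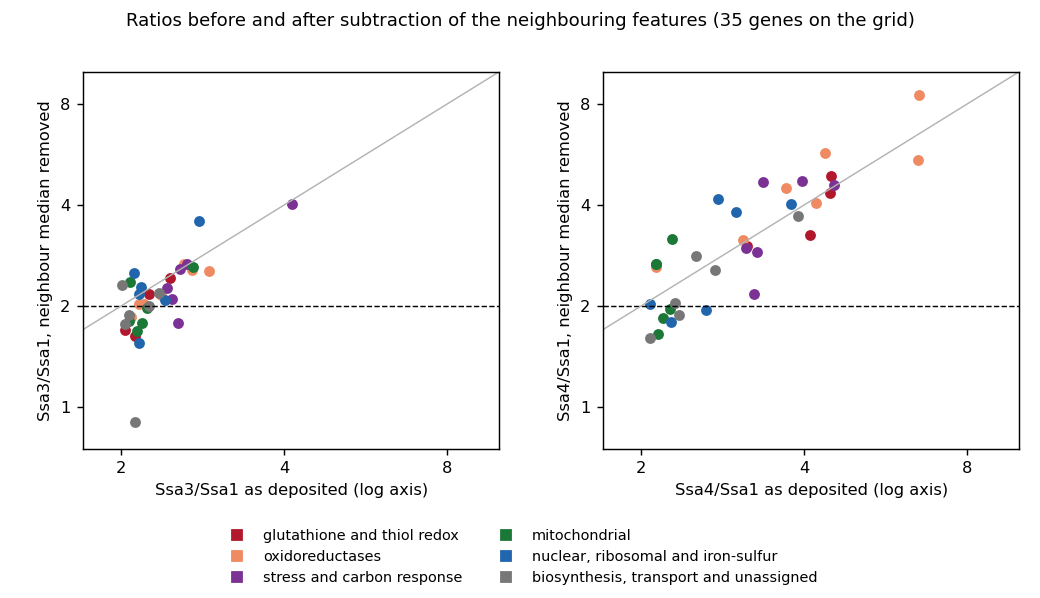
Ssa3/Ssa1 and Ssa4/Ssa1 of the 35 genes on the grid as deposited and after subtraction of the neighbour median (log axes), with the limit of 2 dashed and the line of equal values in grey. Most values of Ssa3/Ssa1 crowd around 2 and 13 of them fall to 2 or below, against 7 for Ssa4/Ssa1.

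In the current annotation the genes lie on 15 chromosomes, the mitochondrial one included, with 8 of them on chromosome XIII. Of the 36 genes, 0 of them are directly next to another, the nearest pair being YNR034W-A and MRPS12, 2 gene steps apart. Spots of gene families can bind related transcripts, among the 36 also those of AAD14, ALD3, FCY21 and HOR2, and that share was not tested.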

How the data were processed

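Normalized intensities were available from 4 arrays, 1 per strain. The authors took the median Cy5 foreground intensity of each spot and kept spots brighter than the limit set by blank spots. They took off the mean background and applied a global normalization that used the median of each array. The deposited intensity values are linear and were used without an offset or a filter. The deposited description states exponential growth, whereas the methods of the study state overnight growth. Ratios were formed within each feature, and those above 2 were counted as induced, the limit of the study. Names were taken from the study's list of changed genes, whose 4 intensities had to match a feature to a relative tolerance of 1e-05; all 36 genes were named. Loci were checked against the R64 gene table for names and gene order only. No test was made, since each strain has 1 array. The genes, the roles and the pathway lists were chosen with earlier results of these data known. All 36 genes are named, with the 3 features nearest to each side of each limit and listed genes of the pathways. The counting rule was tested on simulated data. The sequences of the oligonucleotides were not used here. The work was done in Python 3.11.15 (pandas 2.3.3, numpy 2.4.6, statsmodels 0.14.6, matplotlib 3.10.9).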

Additional observations from a re-analysis of the deposited data

Results flagged for a closer look

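ALD3 was lower in the Ssa2 strain than in the Ssa1 strain, with a Ssa2/Ssa1 of 0.675, while its ratios in the Ssa3 and Ssa4 strains were 2.20 and 4.37. YNR034W-A was marked for the same reason with a Ssa2/Ssa1 of 0.974, which is close to 1, against 2.64 and 3.35. These were the genes of the 36 with a Ssa2/Ssa1 below 1. For YNR034W-A it was near the median of all features, 0.985, and became 1.06 after neighbour subtraction, whereas for ALD3 it became 0.829. Each strain has 1 array, so neither difference was tested.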

How the results depend on the processing

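The count of 36 genes was 42 with equal array medians, 33 after quantile normalization, 25 after subtraction of a lowess curve and 35 after subtraction of the neighbour median, and shared 36, 25, 22 and 17 genes with the 36. A limit of 100 left 32 genes when asked of Ssa3 and Ssa4 and 27 when asked of all arrays, and rounding the ratios gave 38. An offset of 50 gave 21, of which 17 were shared; limits of 1.5 and 3 gave 183 and 7, of which 18 and 2 were shared. A limit of 1.5 on Ssa2 gave 18, the median of Ssa1 and Ssa2 as the reference gave 14, and 7 of the 36 were also above 2 against Ssa2, a setting chosen after seeing the data. GSH1, YDL218W, YML131W and YNR034W-A met the limits under all 5 changes of scaling, offset and position; LEU2, which has no place on the grid, could be followed under the other 4. No gene below 100 on the Ssa1 array met them with the offset of 50.

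The median log2 Ssa3/Ssa2 was 0.60 as deposited, 0.50 after quantile normalization and 0.50 after lowess, 0.49 with the offset, 0.43 after neighbour subtraction and 0.62 with the limit of 100. The median log2 Ssa4/Ssa2 was 1.03 as deposited, 1.03 with equal medians, 0.93 after quantile normalization, 0.95 after lowess, 0.86 with the offset, 1.05 after neighbour subtraction and 1.07 with the limit of 100. The median log2 Ssa4/Ssa3 was 0.35 as deposited, 0.34 with equal medians, 0.37, 0.38, 0.34 and 0.57 after quantile normalization, lowess, offset and neighbour subtraction. The median Ssa4/Ssa3 of the 11 redox genes and oxidoreductases was 1.68 to 2.00 and that of the others 1.04 to 1.25 over these settings. After neighbour subtraction 7 of the 24 others were above 1.5, against 4 of 25 as deposited. The Ssa3/Ssa1 of YFL051C turned to 0.901 after neighbour subtraction. No paired analysis was possible because each strain has 1 array. Promoter motifs were planned and not run. With 1 array per strain, the spread between arrays of a strain is unknown, and the limits rest on single values.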

Other observations

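Neighbouring paralogues of some of the 36 genes had other patterns. ALD2, which lies beside ALD3 and encodes a like aldehyde dehydrogenase, had 468, 321, 584 and 205 from Ssa1 to Ssa4, so that its Ssa4/Ssa1 was 0.437 where that of ALD3 was 4.37. The Ssa2/Ssa1 values of both genes were close, at 0.685 for ALD2 and 0.675 for ALD3. BDH2, beside BDH1, had 864, 676, 2326 and 1448, with its highest value in the Ssa3 strain, unlike BDH1. Of the aryl-alcohol dehydrogenase genes, AAD4 and AAD6 had a higher Ssa4/Ssa1 than AAD14, at 5.65 and 2.42 against 2.13, while AAD3 was at 0.394 and AAD10 at 1.12. These values come from 1 array per strain, and the part of signal shared between related transcripts was not tested.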
